A study of Mus musculus with 2 samples.

Results

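The 10 genes described here encode inflammatory interleukins, tumour necrosis factor and the proteins that restrain them. They were chosen by name, as Il1a, Il1b, Il1rn, Il1r2, Il6, Tnf, Il10, Il12b, Il18 and Il18bp, from the 32285 genes counted in the series. The question was which macrophage or dendritic population of the skin carried each cytokine, which carried its antagonist or decoy, and which of these transcripts were found in the same cell.

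Cells came from shaved dorsal skin of male WT mice, aged 9 weeks in 1 library and 108 weeks in the other, with 2 mice pooled in each library. After enzymatic digestion, F4/80+ MHCII-hi cells were sorted and profiled by 10x 3' single-cell RNA sequencing, which counts unique molecular identifiers (UMIs), each marking 1 captured transcript. The libraries are marked in the counts by barcode suffix 1 or 2, and no label ties a suffix to an age, so ages were not compared and the libraries are described as suffix 1 and suffix 2. With 1 library per age there was no replicate and no test; every interval below is a 95% interval of counting error only, and each ordering is a description of these libraries.

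The matrix held 56204601 UMIs, and 3791 cells were analysed (2396 of suffix 1 and 1395 of suffix 2) with a median of 10865 UMIs per cell. Among the cells that passed the filter, 0 barcodes were shared between the libraries. Although the sort was for macrophages, 53.8% of the cells (2039, of which 1595 carried suffix 1 and 444 suffix 2) fell in 12 clusters with macrophage or dendritic genes, and 1752 cells fell in 15 other clusters, mostly of stromal type. Clusters were formed without the 10 genes and without the pathway genes given further on, and were named from marker lists that hold none of the 10. Names end in "-like" because they were rebuilt from markers. The macrophage and dendritic clusters were the Vcam1 resident-like (302 cells), Cd209f resident-like (292), Dcstamp-like (242), Cd207 dendritic-like (211), inflammatory-like (175), monocyte-like (169), Cd7 dendritic-like (132), cycling dendritic-like (33) and mature dendritic-like (21) cells, with the Spp1 Gpnmb (179) and Cd79a Igkc (134) clusters, called by leading genes, and a cluster of 149 cells with mixed markers that stayed unnamed (the unnamed mixed cluster). The inflammatory-like cluster raised 8 of 9 markers of its list, which includes the chemokine genes Cxcl3, Ccl3 and Ccl4. It also raised 6 of 10 resident macrophage and 6 of 8 monocyte markers, and Cfd and Car3, genes known from fat cells, were among its 5 leading genes. The part of these other markers in its values was not tested.

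Interleukin-1 is made in an alpha and a beta form, which signal through the same receptor. The beta form is cut to its active shape by caspase-1 in the inflammasome, whereas the alpha form is active as made. The receptor antagonist encoded by Il1rn occupies the receptor without signalling, and the decoy receptor encoded by Il1r2 binds the ligand without signalling. Interleukin-18, a relative of interleukin-1, is held by the secreted binding protein encoded by Il18bp. Tumour necrosis factor and interleukin-6 drive local and systemic inflammation, interleukin-10 restrains macrophages, and Il12b encodes the subunit shared by interleukin-12 and interleukin-23 that activated dendritic cells make for T cells.

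Il1a lies at chr2:129299610-129309972 and Il1b at chr2:129364570-129371139, next to each other on the minus strand of GRCm38. Il1rn lies on the plus strand of the same chromosome at chr2:24336853-24351494, and Il1r2 at chr1:40074079-40125231 on the plus strand. Il6 (chr5:30013114-30019981, plus), Tnf (chr17:35199381-35202007, minus), Il10 (chr1:131019845-131024974, plus) and Il12b (chr11:44400063-44414033, plus) share no bases with another annotated gene. Il18 (chr9:50554827-50581840, plus) overlaps Bco2 and Tex12 on the opposite strand, and Il18bp (chr7:102014885-102018690, minus) overlaps Numa1. Il1a and Il1b each overlap an antisense gene, Gm14023 and Il1bos, and Il1r2 overlaps Gm37347 on its own strand and Gm16894 on the other. The sources used here do not say how reads in such overlaps were counted.

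Promoters were read from the RefSeq table of GRCm38.p6, which held 9 of the 10 genes. The 250 bases before the start are shown for Il1a and Il1b, since these neighbours differed in where they were found, for Il1rn, the antagonist (the first of its 3 entries), and for Il6, which was mostly stromal. Capitals mark matches to AP-1 (TGANTCA) or to an NF-kB motif, 2 factors known to act on inflammatory genes.
Il1a, chr2:129309973-129310222, minus strand: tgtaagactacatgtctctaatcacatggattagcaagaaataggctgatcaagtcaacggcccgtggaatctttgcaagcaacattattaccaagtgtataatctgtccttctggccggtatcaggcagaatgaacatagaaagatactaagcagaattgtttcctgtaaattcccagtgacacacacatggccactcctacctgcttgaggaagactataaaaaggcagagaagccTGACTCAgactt
Il1b, chr2:129371140-129371389, minus strand: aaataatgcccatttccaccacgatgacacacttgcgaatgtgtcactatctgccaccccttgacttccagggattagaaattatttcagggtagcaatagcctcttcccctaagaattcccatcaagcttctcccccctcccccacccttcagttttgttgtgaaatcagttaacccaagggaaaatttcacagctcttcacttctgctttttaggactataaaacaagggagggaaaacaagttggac
Il1rn, chr2:24336610-24336859, plus strand: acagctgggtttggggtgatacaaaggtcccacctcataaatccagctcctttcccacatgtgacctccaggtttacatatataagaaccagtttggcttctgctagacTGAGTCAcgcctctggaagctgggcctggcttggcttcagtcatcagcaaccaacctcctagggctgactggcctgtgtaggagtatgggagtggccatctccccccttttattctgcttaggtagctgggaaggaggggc
Il6, chr5:30012864-30013113, plus strand: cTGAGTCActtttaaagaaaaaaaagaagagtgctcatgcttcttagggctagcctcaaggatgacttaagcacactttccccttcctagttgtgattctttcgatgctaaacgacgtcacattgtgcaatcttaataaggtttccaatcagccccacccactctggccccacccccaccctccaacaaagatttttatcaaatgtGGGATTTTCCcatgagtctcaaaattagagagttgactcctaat
AP-1 matched 12 to 6 bases before the start of Il1a, 141 to 135 before that of Il1rn and 249 to 243 before that of Il6. The NF-kB motif matched only Il6 among the 9 genes, 44 to 35 bases before its start. Of 32851 promoters of this length in the table, searched on both strands, 6.75% held AP-1 and 7.25% held NF-kB. The interferon-stimulated response element, held by 2.98% of promoters, matched none of the 9 genes. A match describes these letters only.

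**Figure D1:**
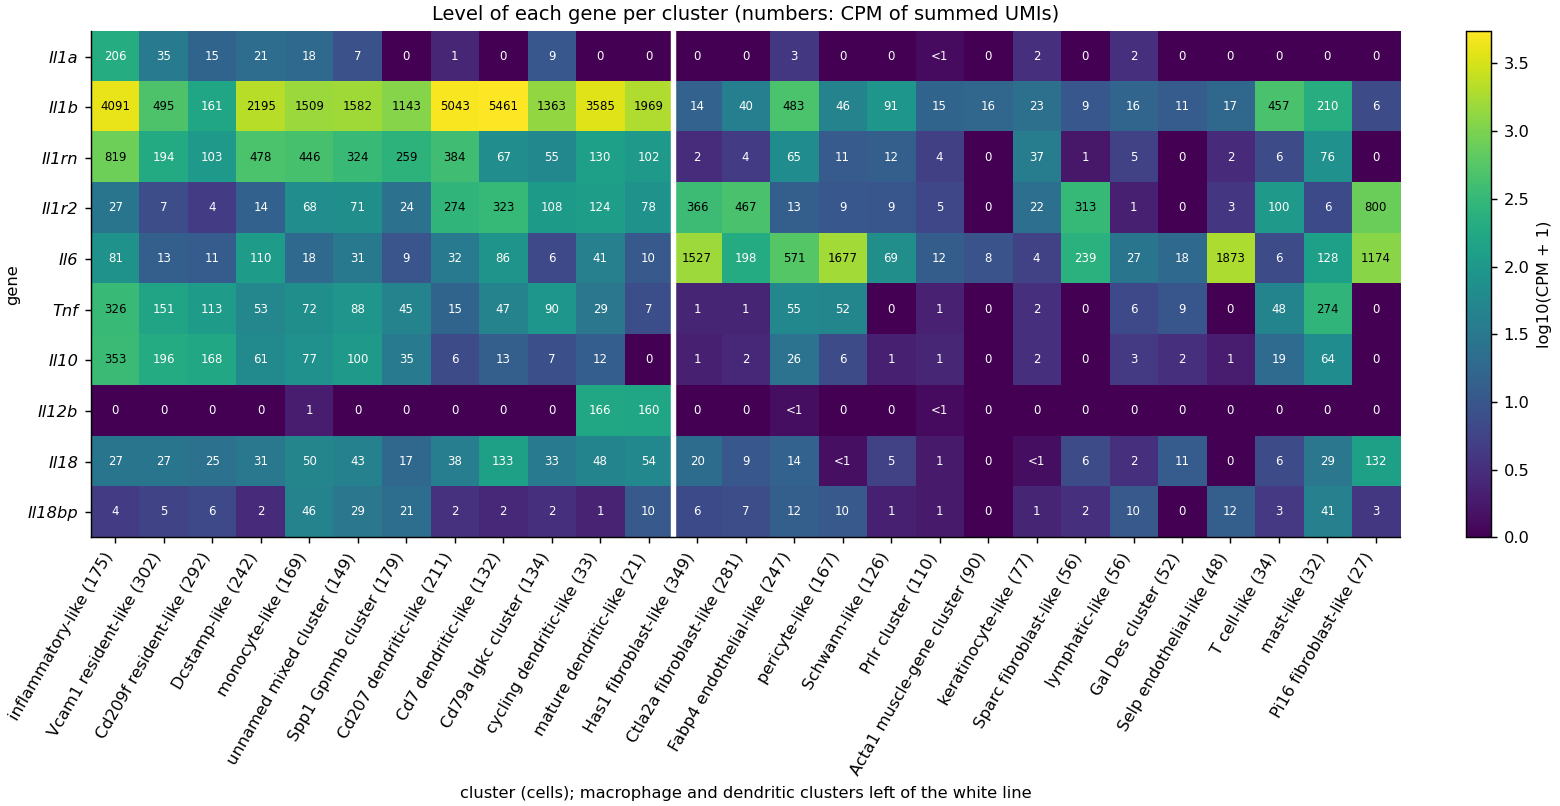
Level of each of the 10 genes (rows) in the clusters (columns, cells in parentheses), as CPM of summed UMIs printed in each cell and coloured on a log10(CPM + 1) scale. Il1b was at 5461, 5043 and 4091 CPM in the Cd7 dendritic-like, Cd207 dendritic-like and inflammatory-like clusters, Il1a and Tnf stood highest in the inflammatory-like cluster, and Il6 was highest right of the white line, in cells that are neither macrophage nor dendritic.

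Levels are given as CPM, the UMIs of a gene divided by all UMIs of a cluster and scaled to 1000000. UMIs of a 3' assay do not scale with transcript length, though capture may differ between genes. The dominant transcript was Il1b, with 62596 UMIs in 1545 cells, against 704 UMIs of Il1a in 156 cells. The 10 genes together reached 6131 CPM in Cd7 dendritic-like, 5934 CPM in inflammatory-like and 5797 CPM in Cd207 dendritic-like cells, and 606 CPM in Cd209f resident-like cells. Il1b made up 89.1% of these UMIs in the Cd7 dendritic-like and 26.6% in the Cd209f resident-like cluster. Of the 10 genes, 5 were at least 2-fold higher in inflammatory-like cells than in the other macrophage and dendritic cells (Il1a, Il1rn, Il6, Tnf and Il10), where 3.31% of all 11749 genes with at least 20 UMIs were. In Cd7 dendritic-like cells 4 were (Il1b, Il1r2, Il6 and Il18), against 6.65% of genes, and in Cd207 dendritic-like cells 2 were (Il1b and Il1r2), against 2.91%. Both calls for Il6 were lost without the highest cell of the cluster, where the log2 ratio was 0.83 in inflammatory-like and 0.32 in Cd7 dendritic-like cells. Each of 7 clusters held 1 such gene. These were Il10 in Vcam1 resident-like (background 6.35%), Il6 in Dcstamp-like (2.68%), Il18bp in monocyte-like (9.33%), the unnamed mixed cluster (4.29%) and Spp1 Gpnmb (5.48%; log2 ratio 0.81 without its highest cell), and Il12b in cycling (13.1%) and mature dendritic-like cells (12.4%). Cd209f resident-like (10.6%) and Cd79a Igkc cells (8.3%) held none. The inflammatory-like cluster had the highest level of 4 of the 10 genes, and of 3.35% of all genes.

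Il1b, the secreted interleukin-1 that needs caspase-1, was highest in dendritic-like cells. In Cd7 dendritic-like cells it stood at 5461 CPM (5855 in suffix 1, 4943 in suffix 2), and in Cd207 dendritic-like cells at 5043 CPM (5558 and 3559). Inflammatory-like cells followed at 4091 CPM (4187 and 3878) and cycling dendritic-like cells at 3585 CPM. Dcstamp-like cells held 2195, mature dendritic-like 1969, the unnamed mixed cluster 1582, monocyte-like 1509, Cd79a Igkc 1363 and Spp1 Gpnmb 1143 CPM. Resident-like cells were lowest, at 495 CPM in the Vcam1 and 161 CPM in the Cd209f cluster. For every neighbouring pair in this order the interval of the ratio excluded 1. The spread between libraries was wider than these intervals in some clusters, since monocyte-like cells held 1240 CPM in suffix 1 and 2611 CPM in suffix 2. The Cd7 dendritic-like level was 2.56-fold that of the other macrophage and dendritic cells (log2 ratio 1.36, interval 1.33 to 1.39), and the Cd207 dendritic-like level 2.55-fold. Which of these 2 stood first changed with the clustering, and Cd207 dendritic-like cells led under a stricter cell filter, a finer clustering and 3000 variable genes.

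Nearly every cell of these dendritic-like clusters held Il1b. UMIs were found in 99.1% of Cd207 dendritic-like cells (94.3% when each cell was thinned to 2000 UMIs) and in 97.0% of Cd7 dendritic-like cells (93.8% thinned), with median depths of 15449 and 14075.5 UMIs. The share was 85.7% in inflammatory-like (79.2% thinned) and 22.3% in Cd209f resident-like cells (9.41% thinned), at medians of 9864 and 8712 UMIs. In Has1 fibroblast-like cells, a background for free RNA at a median of 10003 UMIs, it was 5.16% (2.19% thinned). Here and below this background came mostly from suffix 2, with 59 cells of suffix 1 and 290 of suffix 2. The macrophage and dendritic cells were mostly of suffix 1 (1595 against 444), so the background may differ from theirs. The median Cd7 dendritic-like cell carried 70.5 UMIs of Il1b, the median Cd207 dendritic-like cell 67 and the median inflammatory-like cell 26. The highest cell of all, with 357 UMIs, was inflammatory-like. Outside macrophages and dendritic cells lay 3.30% of Il1b UMIs, and these were held by few cells. In Fabp4 endothelial-like cells, 12 of 247 cells held 1242 of 1294 UMIs; their general myeloid genes, such as Cd68 and Lyz2, summed to 38400 CPM against 3042 CPM in the other cells of the cluster and 49398 CPM in macrophage and dendritic cells. Their median depth was 25868 UMIs against 7797. In the T cell-like cluster 1 cell held 141 of 142 UMIs.

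Il1a, the form active without cutting, had another distribution than its neighbour. It stood at 206 CPM in inflammatory-like cells (interval 186 to 227), 245 in suffix 1 and 119 in suffix 2, and this cluster held 57.7% of all Il1a UMIs. Next were Vcam1 resident-like cells at 34.9 CPM, then Dcstamp-like at 20.6, monocyte-like at 17.7 and Cd209f resident-like at 15.3 CPM, and the last 3 did not differ from each other beyond counting error. Below the inflammatory-like cluster this order did not hold by library, since Vcam1 resident-like cells held 42.5 CPM in suffix 1 and 8.85 in suffix 2, Dcstamp-like cells 24.6 and 4.18, and Cd209f resident-like cells 8.05 and 43.7 CPM, second in suffix 2. The inflammatory-like level was 17.2-fold that of the other macrophage and dendritic cells (log2 ratio 4.10, interval 3.88 to 4.33). Under a looser and a stricter cell filter the log2 ratio was 2.95 and 2.90. In Cd207 dendritic-like cells, the second highest for Il1b, Il1a stood at 1.50 CPM. In Cd7 dendritic-like, Spp1 Gpnmb, cycling and mature dendritic-like cells no UMI was found, and in the 132 Cd7 dendritic-like cells a count of 0 allows up to 1.59 CPM. Il1a was found in 30.3% of inflammatory-like cells (53 of 175; 17.9% thinned). It was found in 0 of 349 Has1 fibroblast-like cells, and in 0 of 319 after thinning, which allows a share of up to 0.940%. Few cells carried it, and 15 cells held at least 50% of all its UMIs.

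**Figure D2:**
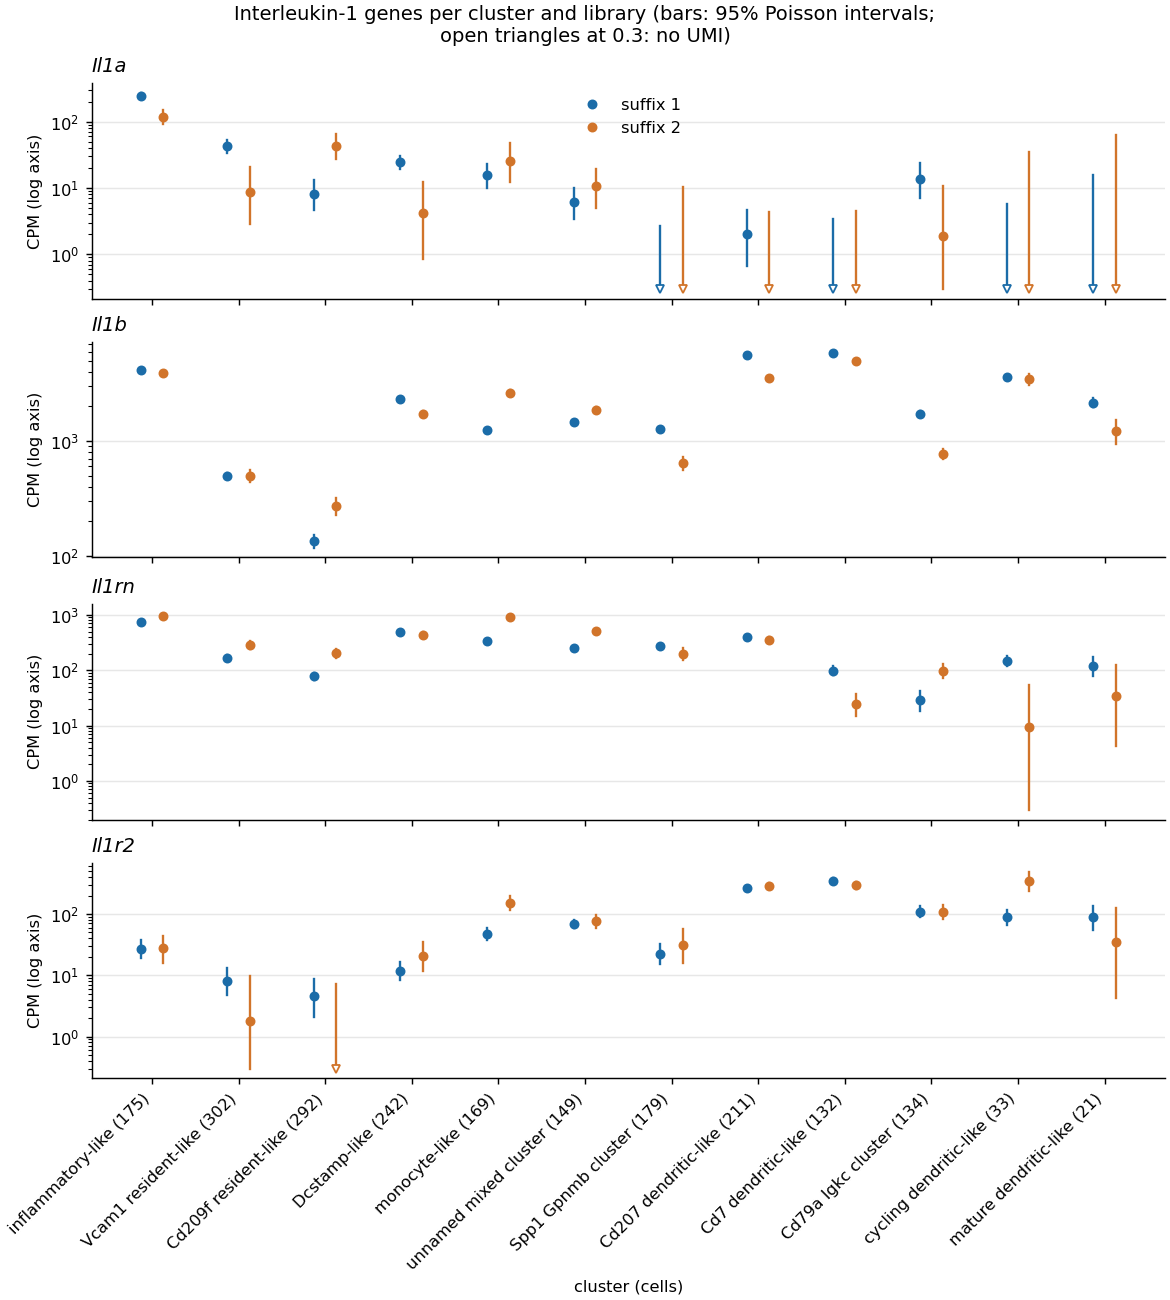
Level of Il1a, Il1b, Il1rn and Il1r2 (panels, CPM on a log axis) in each macrophage or dendritic cluster, for suffix 1 and suffix 2, with 95% Poisson intervals of counting error as bars and open triangles where no UMI was found. Il1a was highest in inflammatory-like cells in both libraries, at 245 and 119 CPM, and Il1b in Cd7 dendritic-like cells, at 5855 and 4943 CPM.

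Il1rn, the receptor antagonist, was highest in inflammatory-like cells at 819 CPM (752 in suffix 1, 969 in suffix 2), 2.93-fold the level of the other macrophage and dendritic cells (log2 ratio 1.55, interval 1.47 to 1.63). Dcstamp-like and monocyte-like cells followed at 478 and 446 CPM and did not differ from each other beyond counting error, although the monocyte-like level was 335 CPM in suffix 1 and 903 CPM in suffix 2. Under a looser and a stricter cell filter the inflammatory-like log2 ratio was 0.95 and 0.86. The dendritic-like clusters that carried most Il1b parted here. Cd207 dendritic-like cells held 384 CPM of Il1rn, and Cd7 dendritic-like cells held 66.8 CPM (98.9 and 24.5 by library), close to the lowest level, 54.9 CPM in the Cd79a Igkc cluster. Il1rn was found in 68.2% of Cd207 and 15.2% of Cd7 dendritic-like cells (36.0% and 7.69% thinned), against 81.7% of inflammatory-like cells (60.7% thinned) and 2.01% of Has1 fibroblast-like cells (0 of 319 thinned). Keratinocyte-like cells, whose lineage is known to make this antagonist, held 37.4 CPM.

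Il1r2, the decoy receptor, was highest in the dendritic-like clusters among macrophages and dendritic cells. It stood at 323 CPM in Cd7 dendritic-like cells (344 in suffix 1, 296 in suffix 2) and at 274 CPM in Cd207 dendritic-like cells (270 and 286), 4.40-fold and 4.26-fold the level of the others (log2 ratios 2.14 and 2.09). Cycling dendritic-like, Cd79a Igkc, mature dendritic-like, unnamed mixed and monocyte-like cells lay between 67.7 and 124 CPM, with no neighbouring pair of them apart beyond counting error. The ends of this range differed more, with log2 ratios over the other macrophage and dendritic cells of 0.45 (interval 0.13 to 0.75) in cycling dendritic-like and -0.47 (interval -0.74 to -0.22) in monocyte-like cells. In suffix 2 the highest cluster was cycling dendritic-like at 344 CPM, from 4 cells. Resident-like cells had almost none, with 6.75 CPM in the Vcam1 and 3.61 CPM in the Cd209f cluster. UMIs were found in 76.8% of Cd207 and 73.5% of Cd7 dendritic-like cells (31.3% and 39.2% thinned), and in 3.64% of Vcam1 resident-like cells (0.725% thinned). Fabp4 endothelial-like cells, at a median of 8379 UMIs, showed 4.45% (1.78% thinned). Of their 11 cells with Il1r2, 8 also held Il1b, and 1.45% of their cells without Il1b held Il1r2. The 4.45% therefore cannot serve as an empty background. The decoy was not limited to myeloid cells, since 65.2% of its 6734 UMIs lay outside. Pi16 fibroblast-like cells held 800 CPM, Ctla2a fibroblast-like 467, Has1 fibroblast-like 366 and Sparc fibroblast-like 313 CPM, whereas pericyte-like cells held 9.19 and Selp endothelial-like cells 2.86 CPM.

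Setting antagonist against ligand, all macrophage and dendritic cells held 0.135 UMIs of Il1rn per UMI of Il1b. The ratio was 0.637 in Cd209f resident-like and 0.393 in Vcam1 resident-like cells, which carried little of either transcript. It was 0.296 in monocyte-like, 0.218 in Dcstamp-like and 0.20 in inflammatory-like cells, and 0.0761 in Cd207 dendritic-like cells. In Cd7 dendritic-like cells it was 0.0122 (interval 0.0102 to 0.0146), or 81.8 UMIs of Il1b per UMI of Il1rn. By library the Cd7 dendritic-like ratio was 0.0169 in suffix 1 and 0.00497 in suffix 2. It was not the lowest in either library taken alone, since the Cd79a Igkc cluster stood at 0.0166 in suffix 1, within counting error of it, and the 4 cycling dendritic-like cells of suffix 2 held 1 UMI of Il1rn against 359 of Il1b (0.00279, interval 7.03e-05 to 0.0156). Decoy UMIs per UMI of Il1b followed another order, with 0.0795 in Cd79a Igkc, 0.0592 in Cd7 and 0.0544 in Cd207 dendritic-like cells, against 0.00668 in inflammatory-like and 0.00623 in Dcstamp-like cells. Cd7 dendritic-like cells thus held 4.84 UMIs of the decoy per UMI of the antagonist (interval 3.99 to 5.91), while inflammatory-like cells held 0.0334. The decoy to antagonist ratio in Cd7 dendritic-like cells was 3.48 in suffix 1 and 12.1 in suffix 2, above 1 in both.

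**Figure D3:**
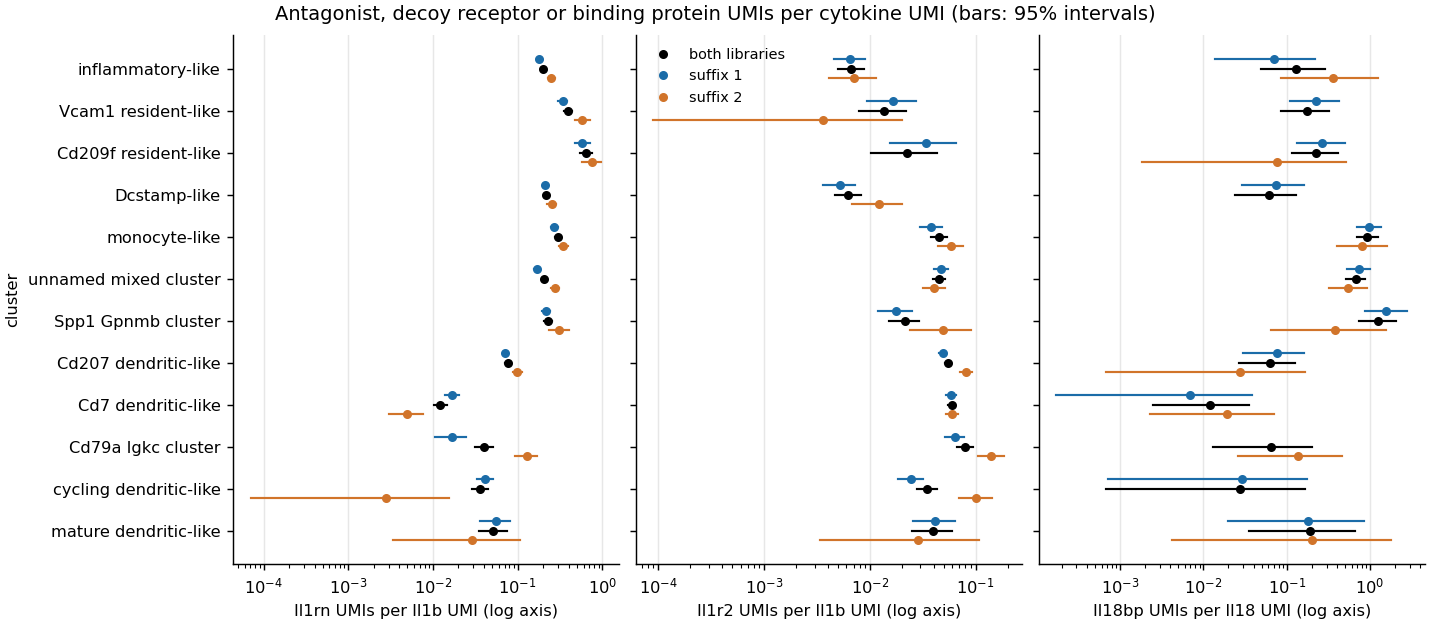
UMIs of Il1rn per UMI of Il1b, of Il1r2 per UMI of Il1b and of Il18bp per UMI of Il18 (panels, log axis) in each macrophage or dendritic cluster, for both libraries together (black), suffix 1 (blue) and suffix 2 (orange), with 95% intervals of counting error as bars and no point where either gene had no UMI. Pooled, Il1rn per Il1b ran from 0.637 in Cd209f resident-like to 0.0122 in Cd7 dendritic-like cells, whereas Il1r2 per Il1b was 0.0592 in Cd7 dendritic-like and 0.00668 in inflammatory-like cells.

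Tnf, the classical early inflammatory cytokine, was highest in inflammatory-like cells at 326 CPM (349 in suffix 1, 275 in suffix 2), 4.60-fold the level of the other macrophage and dendritic cells (log2 ratio 2.20, interval 2.07 to 2.33). Resident-like cells came next in the pooled libraries, with 151 CPM in the Vcam1 (161 and 115 by library) and 113 CPM in the Cd209f cluster (115 and 107). In suffix 2 the Spp1 Gpnmb cluster, at 25.4 CPM in suffix 1, was second with 123 CPM. Cd207 dendritic-like cells held 14.98 CPM. Resident-like cells thus held more Tnf than Cd207 dendritic-like cells, opposite to Il1b. Tnf was found in 69.1% of inflammatory-like cells (39.3% thinned) and in 1.43% of Has1 fibroblast-like cells (0 of 319 thinned). Outside, mast-like cells, known to store this cytokine, held 274 CPM (236 and 318 by library) at a median depth of 3536 UMIs.

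Il10, the restraining cytokine, was found in the same clusters. It stood at 353 CPM in inflammatory-like cells (392 in suffix 1, 267 in suffix 2), 4.73-fold the level of the others (log2 ratio 2.24, interval 2.11 to 2.37), at 196 CPM in Vcam1 resident-like cells (206 and 163) and at 168 CPM in Cd209f resident-like cells (167 and 173). Under the looser filter the inflammatory-like log2 ratio was 1.41 for Il10 and 1.46 for Tnf. Cd7, cycling and Cd207 dendritic-like cells and the Cd79a Igkc cluster held 6.29 to 12.7 CPM, and mature dendritic-like cells had no UMI, which allows up to 10.2 CPM. Il10 was found in 46.9% of inflammatory-like cells (28.9% thinned), in 43.0% of Vcam1 resident-like cells (19.2% thinned) and in 0.860% of Has1 fibroblast-like cells (0.313% thinned).

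Il6 was a minor transcript of macrophages and dendritic cells, which held 7.01% of its 15669 UMIs. Among them Dcstamp-like cells were highest at 110 CPM (105 in suffix 1, 134 in suffix 2), 3.50-fold the level of the others (log2 ratio 1.81, interval 1.63 to 1.98). The Cd7 dendritic-like cluster (67.2 and 110 by library) and the inflammatory-like cluster (96.3 and 47.2) followed at 85.9 and 81.0 CPM and did not differ from each other beyond counting error. In Cd7 dendritic-like cells 1 cell held 69 of the 162 UMIs, and the level without it was 49.8 CPM. The Dcstamp-like lead owed part of its size to 1 cell with 94 UMIs, and without that cell the log2 ratio was 1.44. Il6 was found in 24.4% of Dcstamp-like cells (9.13% thinned, median 15008 UMIs). For background, keratinocyte-like cells, at a median of 20204 UMIs, showed it in 14.3% of cells (0 of 73 thinned).

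Stromal and vascular cells held most Il6. Selp endothelial-like cells, whose leading gene is a marker of venules, held 1873 CPM (2441 in suffix 1, 1465 in suffix 2) with UMIs in 89.6% of cells (70.8% thinned). Pericyte-like cells held 1677 CPM (1427 and 1980), Has1 fibroblast-like 1527 (2077 and 1412), Pi16 fibroblast-like 1174 (717 and 2202) and Fabp4 endothelial-like 571 CPM (556 and 589). Each of these clusters was above 500 CPM in both libraries, where no macrophage or dendritic cluster passed 134 CPM in either. Ctla2a fibroblast-like cells, at 198 CPM, and Sparc fibroblast-like cells, at 239 CPM, held less Il6 than decoy Il1r2.

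**Figure D4:**
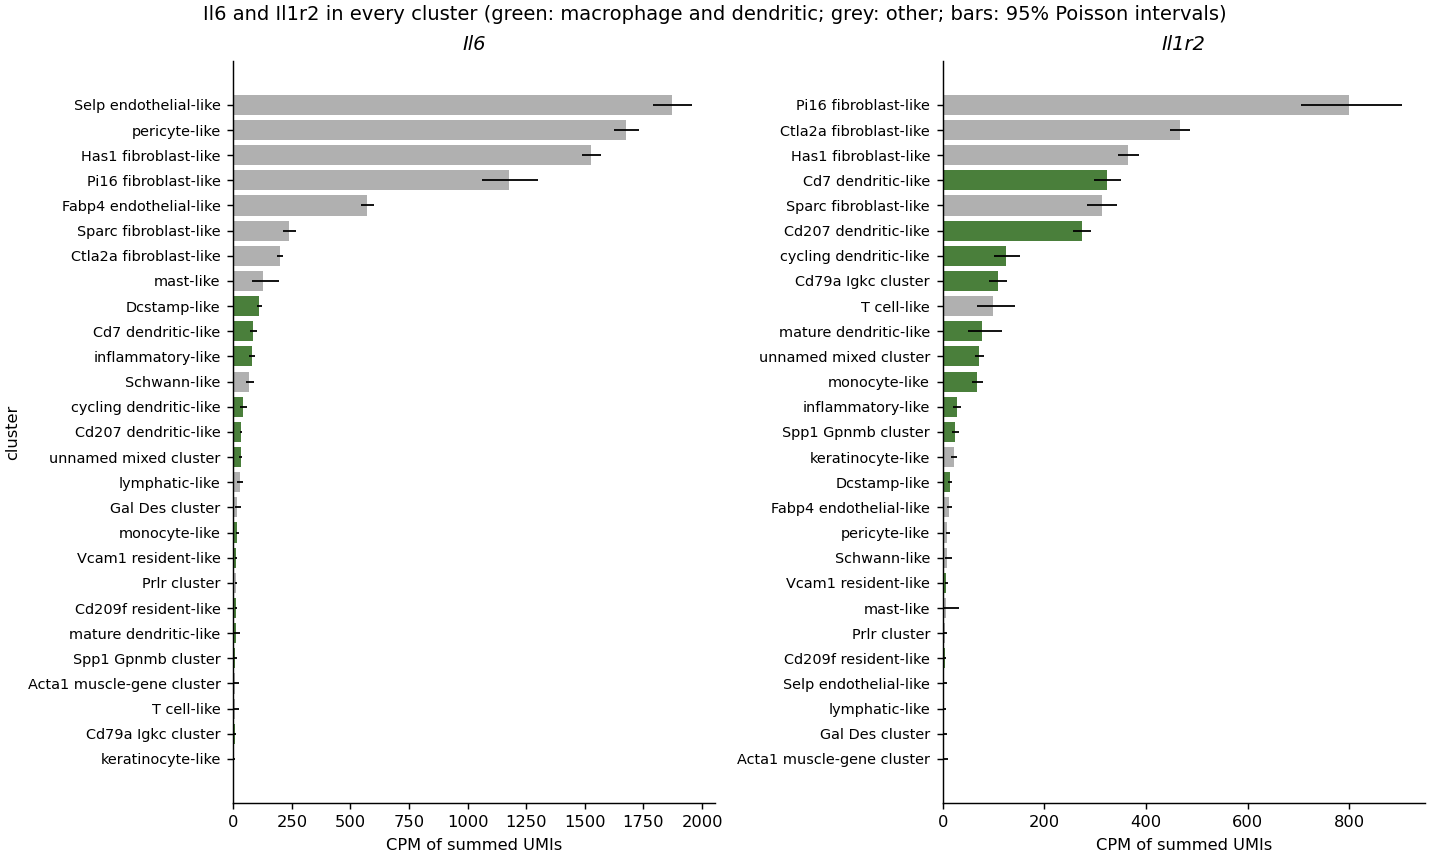
Level of Il6 and Il1r2 (panels, CPM of summed UMIs on a linear axis from 0) in the clusters of the series, with macrophage and dendritic clusters in green, other clusters in grey and 95% Poisson intervals as bars. Il6 reached 1873 CPM in Selp endothelial-like cells and 110 CPM in Dcstamp-like cells, and Il1r2 reached 800 CPM in Pi16 fibroblast-like and 323 CPM in Cd7 dendritic-like cells.

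Il12b was found in 9 of 3791 cells, with 175 UMIs. A single cycling dendritic-like cell of suffix 1 held 123 of them, or 70.3%. It carried 1 UMI of Il1b, 20 UMIs of the list for conventional dendritic cells type 1 (14 of them Irf8, a factor those cells need), none of the type 2 list and 118 of the mature dendritic list. Another 4 of the 21 mature dendritic-like cells held 26, 11, 6 and 4 UMIs. The first 3 of these had at most 1 UMI of Il1b and the fourth had 144. The other cycling dendritic-like cell, with 1 UMI of Il12b, had 81 UMIs of Il1b. Of the 7 macrophage and dendritic cells with Il12b, 5 had Il1b, where 5.37 were expected within cluster and depth. The cycling and mature dendritic-like clusters stood at 166 and 160 CPM, and 9 of the 12 clusters had no UMI. Without the highest cell the cycling dendritic-like cluster lay below the others (log2 ratio -0.51, interval -5.85 to 2.03), so its lead rested on that cell. In suffix 2 the mature dendritic-like cluster alone held any, at 104 CPM from 6 UMIs.

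Il18, unlike Il1b, had a single cluster that stood above the rest. It was at 133 CPM in Cd7 dendritic-like cells (136 in suffix 1, 128 in suffix 2), 3.91-fold the level of the others (log2 ratio 1.97, interval 1.76 to 2.17). In the other 11 clusters it lay between 17.4 and 54.4 CPM, where no neighbouring pair in the order was apart beyond counting error. These clusters were not all alike, since the lowest, Spp1 Gpnmb, had a log2 ratio of -1.30 over the other macrophage and dendritic cells (interval -1.88 to -0.78). Outside, Pi16 fibroblast-like cells held 132 CPM (142 and 110). UMIs were found in 63.6% of Cd7 dendritic-like cells (22.3% thinned) and in 16.6% of Has1 fibroblast-like cells (5.02% thinned). No cell had more than 14 UMIs. The log2 ratio of the Cd7 dendritic-like cluster was 1.04 under a stricter cell filter. With 3000 variable genes the leading cluster changed. It had 46 cells at 113 CPM, of which 52.2% were Cd79a Igkc cells and 22 came from the 132 Cd7 dendritic-like cells.

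Its binding protein Il18bp was found in other clusters. It stood at 46.0 CPM in monocyte-like (46.5 in suffix 1, 43.7 in suffix 2), 29.0 in unnamed mixed and 21.4 CPM in Spp1 Gpnmb cells. In the other 9 macrophage and dendritic clusters it was at 10.2 CPM or less. Outside macrophages and dendritic cells lay 34.6% of its 434 UMIs. It was found there in 30 of 247 Fabp4 endothelial-like cells and, with 7 UMIs, in 3 of 32 mast-like cells. The monocyte-like level was 5.60-fold that of the others (log2 ratio 2.48, interval 2.11 to 2.85), and without the unnamed mixed cluster the log2 ratio was 3.28. The share of cells with a UMI was 32.5% in monocyte-like and 40.3% in the deeper unnamed mixed cells, and 6.17% and 6.08% after thinning, near the level of 1 UMI per cell. Has1 fibroblast-like cells showed 6.02% (1.25% thinned). UMIs of Il18bp per UMI of Il18 were 1.23 in Spp1 Gpnmb (interval 0.741 to 2.07), 0.929 in monocyte-like and 0.676 in unnamed mixed cells, and 0.0120 in Cd7 dendritic-like cells (3 UMIs against 250). In the pooled libraries Cd7 dendritic-like cells had the lowest ratio of antagonist to cytokine for interleukin-18 as well as for Il1b, and the highest level of both cytokines, although 3 UMIs leave the first of these ratios uncertain (interval 0.00246 to 0.0355).

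Transcripts of the set often shared a cell. Of the 2039 macrophage and dendritic cells, 180 had none of the 10 genes, 330 had 1, 491 had 2, 456 had 3 and 329 had 4, and the most found in 1 cell was 9. Of the 4 interleukin-1 genes, 448 cells (21.97%) had none, 426 had Il1b with Il1rn only, 321 had Il1b alone and 199 Il1rn alone, 232 had Il1b with the decoy, 232 had Il1b with antagonist and decoy, and 15 had all 4. Il1b was found in 76.8% of the 968 cells with the antagonist and in 92.9% of the 520 cells with the decoy. The shares with antagonist or decoy differed by cluster. Of Cd7 dendritic-like cells with Il1b, 15.6% had the antagonist and 75.0% the decoy (20 and 97 of all 132 cells). Of Cd207 dendritic-like cells with Il1b, 67.9% had the antagonist and 77.5% the decoy (144 and 162 of all 211). Of inflammatory-like cells with Il1b, 82.7% had the antagonist and 16.7% the decoy (143 and 27 of all 175). Most cells of these clusters held Il1b, so these shares nearly repeat those of the whole cluster and say little about pairing.

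To set such counts against cluster and depth, the expected number of cells with both genes was computed as if they were found independently within each cluster and class of depth (cells of the cluster ranked by UMIs and cut into 4 classes). Il1a and Il6 shared 49 cells where 28.2 were expected, a ratio of 1.74 (interval 1.34 to 2.16), and 2.82 in thinned cells, from 9 cells against 3.19. Il1a shared 105 cells with Tnf against 83.7 expected (1.25, interval 1.12 to 1.38), 73 with Il10 against 57.6 (1.27, interval 1.06 to 1.48) and 116 with Il1b against 100 (1.16, interval 1.05 to 1.25). For each of these 4 partners more cells were shared than independence within these clusters and classes of depth would give. The expected numbers were not split by library. Over 6 alternatives, each library alone among them, the lowest of these 4 ratios was 1.13 (Il1a with Il1b). Doublets were in effect left in and the clusters can hold finer groups, and the part of either was not tested. Tnf and Il10 shared 291 cells against 259 (1.12, interval 1.04 to 1.21). The ratio was 1.04 for Il1b and Il1rn (interval 1.01 to 1.08) and 1.05 for Il1b and Il1r2 (interval 1.02 to 1.08). Il1b was found in most of these cells, which leaves its ratios little room above 1, so their size cannot be set beside that of rarer pairs. The ratio was 0.978 for Il1rn and Il1r2 and 1.08 for Il18 and Il18bp, with intervals that included 1. Il1r2 and Il18bp shared fewer cells than expected, 43 against 56.0 (0.768, interval 0.573 to 0.993). Of the 45 pairs, 36 had at least 10 expected cells and 26 of these were above 1.

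**Figure D5:**
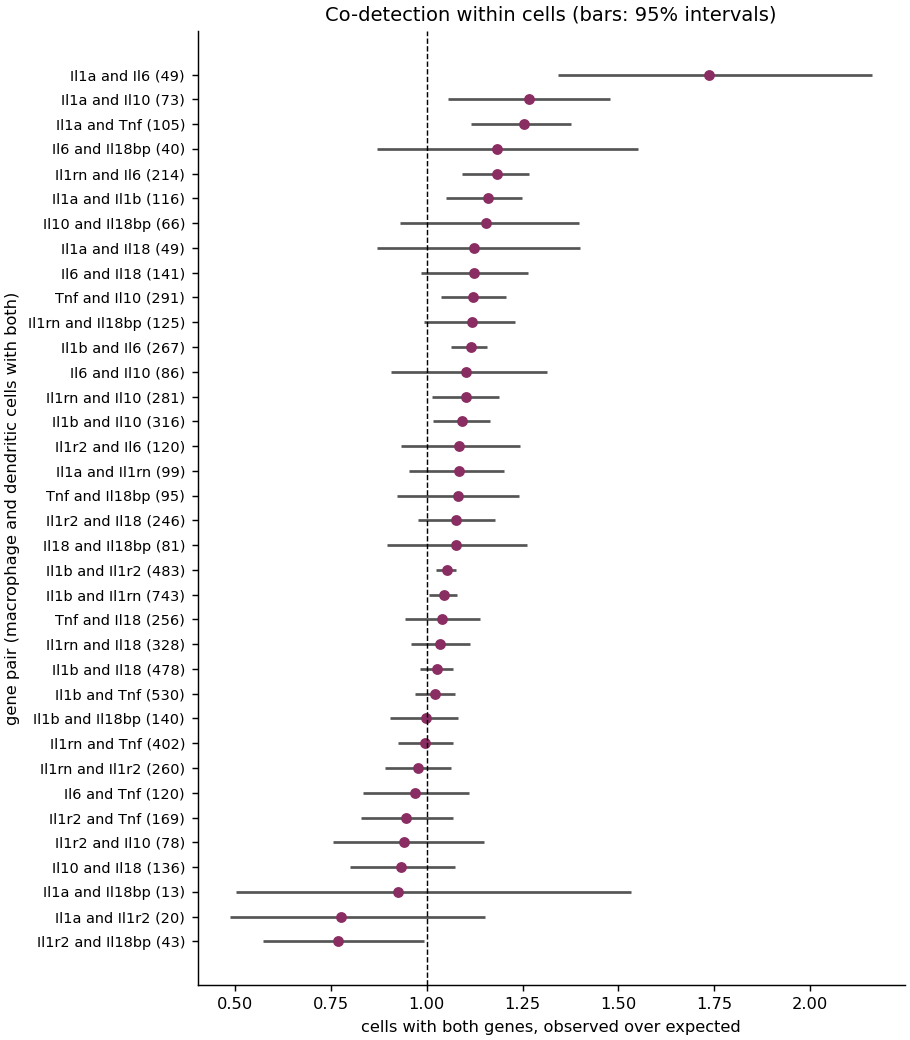
Cells with both genes of a pair, observed over the number expected within cluster and class of depth (x axis, linear), for the 36 pairs with at least 10 expected cells, with the observed cells in parentheses. Bars are 95% binomial intervals of the observed share with the expected number held fixed, and the dashed line is 1. Il1a with Il6 stood highest at 1.74, and Il1r2 with Il18bp lowest at 0.768.

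Within the inflammatory-like cluster, the 53 cells with Il1a held 221 CPM of Il6 against 26.7 CPM in the 122 without, 618 against 213 CPM of Tnf, 529 against 285 CPM of Il10 and 5452 against 3563 CPM of Il1b. Il1rn did not follow them, at 766 against 840 CPM, and Il1r2 was 10.9 against 33.7 CPM. The share of cells with Il10 hardly differed, at 49.1% with Il1a and 45.9% without, whereas that with Tnf was 83.0% and 63.1%. The cells with Il1a were not deeper, with medians of 8933 and 10527 UMIs, and 47 of the 53 carried suffix 1 against 81 of the 122. Among Dcstamp-like cells, the 20 with Il1a held 490 CPM of Il6 against 65.4 CPM in the 222 without. Leaving out the cell with 94 UMIs of Il6 gave 266 CPM. Il1b was 3599 against 2028 CPM, at medians of 18931.5 and 14487.5 UMIs. Tnf was 129 against 43.5 CPM and Il10 134 against 52.8 CPM. Leaving out the highest cell of those with Il1a gave 31.6 CPM of Tnf and 42.1 CPM of Il10, below the cells without. In Vcam1 resident-like cells, the 27 with Il1a held 163 against 149 CPM of Tnf and 19.5 against 11.8 CPM of Il6. Il10 was 309 against 181 CPM there, and Il1b 937 against 433 CPM. In Cd7 dendritic-like cells the 20 cells with Il1rn held 61.4 CPM of Il10 against 1.94 CPM in the 112 without, but 1 cell held 15 of the 21 UMIs and the level without it was 18.2 CPM. They held 55.5 against 150 CPM of Il18, and as much Il1b (5437 against 5466 CPM). These splits were made on the data and are descriptions.

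Between the libraries, over all macrophage and dendritic cells, 1 of the 10 genes differed at least 2-fold (Il12b, at a log2 ratio of 3.24, with 123 of its UMIs in 1 cell of suffix 1), where 6.03% of all genes did. The log2 ratio of suffix 1 over suffix 2 was 0.62 for Il1a, 0.47 for Il18bp, 0.11 for Il10, 0.05 for Il1b, -0.06 for Tnf, -0.27 for Il18, -0.33 for Il6, -0.34 for Il1rn and -0.49 for Il1r2. The libraries also differed in the numbers of cells per cluster, and their ages are unknown, so these values cannot be told apart from library effects. The cluster with the highest pooled level was the highest in both libraries for 8 of the 10 genes, the exceptions being Il1r2 and Il12b.

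The inflammatory-like cluster depended on the clustering. At a Leiden resolution of 0.5 no cluster consisted mostly of its cells; 148 of the 175 joined a 465-cell cluster with Dcstamp-like cells, which still led for Il1a (log2 ratio 2.98), Il1rn (1.12) and Tnf (0.84), whereas a cluster mostly of Cd209f resident-like cells led for Il10 (1.27). With 3000 variable genes 121 of them joined Vcam1 resident-like cells in a 293-cell cluster. That cluster led for Il1a (3.51), Il1rn (0.80), Tnf (1.98) and Il10 (1.85). At resolution 2 the genes parted. An 84-cell cluster, 57.1% inflammatory-like with 48 of the 175 cells, led for Il1a (4.53), Tnf (3.04) and Il10 (2.43). Another cluster of 127 cells, with 122 of the 175, led for Il1rn (1.72).

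Partner genes of the pathways were taken from 4 lists of 53 genes, chosen with earlier results known. Of 14 receptor genes, 13 had at least 20 UMIs and 7 of these were at least 2-fold higher in their leading macrophage or dendritic cluster, where 51.9% of all genes with at least 20 UMIs were in theirs, so none of the counts of this kind given here can be read as more than a description. Tnfrsf1b, a tumour necrosis factor receptor of leukocytes, led in inflammatory-like cells at 415 CPM, and Tnfrsf1a, the widespread one, in Cd209f resident-like cells at 272 CPM. Il10rb led in monocyte-like cells at 226 CPM, and Il6st, the signalling chain for interleukin-6, was 232 CPM in Cd207 dendritic-like but 916 CPM in Selp endothelial-like cells. In all, 10 of the receptors were higher in a cluster that is neither macrophage nor dendritic. Of 18 further cytokine subunits, 14 were in the matrix, 6 had at least 20 UMIs and 4 had none, with 5 at least 2-fold higher in their leading cluster. Osm, of the interleukin-6 family, stood at 167 and 158 CPM in the Vcam1 and Cd209f resident-like clusters, Tnfsf9 at 153 CPM in mature dendritic-like and Ebi3 at 49.4 CPM in cycling dendritic-like cells, whereas Lif was at 302 CPM in Has1 fibroblast-like cells, and 2 of the 6 were higher outside macrophages and dendritic cells. All 10 processing and inflammasome genes had at least 20 UMIs, 4 were at least 2-fold higher in their leading cluster and 1 was higher outside. Nlrp3, a sensor that can start caspase-1 cutting and 1 of several in this list, led in inflammatory-like cells at 535 CPM. Casp4 led in Vcam1 resident-like cells at 300 CPM. Pycard and Adam17, the protease that sheds tumour necrosis factor, led in monocyte-like cells at 169 and 138 CPM. Of 11 NF-kB response genes 4 were at least 2-fold higher in their leading cluster, and 7 were higher in a cluster that is neither macrophage nor dendritic. Zfp36, which destabilises cytokine transcripts, led in Vcam1 resident-like cells at 2034 CPM, Nfkb1 in inflammatory-like cells at 1117, Rel in Cd7 dendritic-like cells at 1223 and the inhibitor Nfkbia in mature dendritic-like cells at 1666 CPM, below its 3320 CPM in Selp endothelial-like cells. The inflammatory-like cluster held the highest level of 7 of the 40 pathway genes with at least 20 UMIs, against 3.35% of all genes, and the Cd7 dendritic-like cluster of 2, against 5.03%.

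The genes most like each member across the 12 macrophage and dendritic clusters were ranked by Pearson correlation of log2(CPM + 10) among 7341 genes. The clusters share libraries and some are small, so the values describe 12 points. For Il1a these were Csf3 (0.915), Car3 (0.906) and Ccl3 (0.889), and for Tnf Ccl3 (0.968), Cited2 (0.965) and Ccl4 (0.935). For Il1b they were Tnip3 (0.931), Lrrfip1 (0.93) and Malt1 (0.920), for Il1rn Rnf149 (0.938), Tnfrsf1b (0.934) and Slfn2 (0.897), and for Il1r2 Uck2 (0.937), Havcr2 (0.932) and Siglecg (0.929). Il10 was closest to Plagl2 (0.952), Gdf15 (0.95) and Pitpnc1 (0.949), Il6 to Rnf157 (0.901), Plxdc2 (0.827) and Ctdnep1 (0.823), Il18 to Kif1a (0.906), Satb1 (0.900) and Apod (0.891), and Il18bp to Slfn4 (0.967), Tmem86a (0.963) and Siglec1 (0.960). Il12b, at under 200 UMIs, was not ranked.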

How the data were processed

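Single-cell transcriptomes of 2 libraries were analysed. The authors deposited 1 matrix of UMI counts (5257 barcodes), and the submitters' processing notes name Cell Ranger 4.0.0 and mm10. Barcodes of suffix 1 (3235, 35821853 UMIs) and suffix 2 (2022, 20382748 UMIs) were kept apart but not tied to an age.

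The cell filter (500 genes, 1000 UMIs and no more than 10% mitochondrial UMIs) kept 3797 barcodes. Scrublet marked 6 of them (0.158%), which were removed, and a caller that marks so few has not worked, so doublets were in effect left in. Each cell was scaled to 10000, and 2000 variable genes without members or pathway genes, 30 components, 15 neighbours and Leiden resolution 1 gave 27 clusters (scanpy 1.11.5, leidenalg 0.10.2, Python 3.11.15). A cluster was called macrophage or dendritic when at least 7 of 10 general myeloid markers were raised (at least 20 CPM and 2-fold over the median cluster) or its name was dendritic. Of 22 marker lists, the best gave the name when at least 3 of its markers were raised, it led by at least 1 on a log2 scale and no other list had more of the 10 leading genes.

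UMIs were summed per cluster. Intervals are exact Poisson for levels, exact conditional for ratios and Clopper-Pearson for shares, and a count of 0 was set against 3 counts. Shares were repeated with each cell thinned to 2000 UMIs. Ratio intervals were tested on simulated counts, and thinning was checked to keep the mean share of each gene. Co-detection counts were not tested in this way. Named genes were the 10 members, up to 4 genes per pathway list by UMI sum, the 3 genes most like each member with at least 200 UMIs and the leading genes of clusters. Gene positions were matched by identifier to GENCODE (32235 of 32285 found). Alternatives were looser and stricter cell filters, Leiden resolutions of 0.5 and 2, 3000 variable genes, removal of cells with a Scrublet score of 0.2 or more, each library alone, a mean over cells, other thinning depths, and, chosen after seeing the data, leaving out the unnamed mixed cluster or the cell with the most UMIs of a gene. The members and lists were chosen with earlier results of these data known.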

Additional observations from a re-analysis of the deposited data

Results flagged for a closer look

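The cell filter removed 1460 barcodes with 5403713 UMIs, 1149 of them over the mitochondrial limit, and each of the 10 genes was found in these barcodes above the 0.555 CPM that a count of 0 allows. Il1b stood at 265 CPM, Il6 at 199, Il1rn at 38.5, Il1r2 at 34.4, Tnf at 24.8, Il10 at 12.4, Il18 at 9.99, Il18bp at 3.33, Il1a at 2.78 and Il12b at 0.925 CPM. These barcodes were assigned to no cluster and enter no comparison, and which cells the transcripts came from was not tested.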

How the results depend on the processing

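The looser filter required 200 genes and 500 UMIs with at most 20% mitochondrial UMIs, the stricter one 1000 genes and 2000 UMIs with at most 5%. Each leading cluster was picked as the highest in these same data, and the alternatives followed its cells. A positive sign was therefore largely fixed in advance and is no support for the lead. Cases that gave no value are named below and are not among the 96. The log2 ratio of the leading cluster over the other macrophage and dendritic cells was positive in 95 of 96 alternatives. In 57 of them it stayed within its interval, and the cause of the moves below was not tested. Under the looser filter it was 2.95 for Il1a, 1.24 for Il1b, 0.95 for Il1rn, 2.07 for Il6, 1.46 for Tnf and 1.41 for Il10. Under the stricter filter it was 2.90 for Il1a, 0.88 for Il1b, 0.86 for Il1rn, 1.86 for Il1r2, 2.02 for Tnf, 2.09 for Il10, 1.04 for Il18 and 2.94 for Il18bp. At Leiden resolution 0.5 it was 1.16 for Il1b, 1.79 for Il1r2 and 1.64 for Il18, at resolution 2 it was 1.42 for Il1rn and 2.09 for Il10, and with 3000 variable genes 1.12 for Il1b and 1.56 for Il18. Without cells of Scrublet score 0.2 or more Il1b was at 1.39. In suffix 1 alone it was 1.42 for Il1b, 2.35 for Il1r2 and 2.38 for Il10, and in suffix 2 alone 3.77 for Il1a, 1.69 for Il1r2, 1.89 for Tnf and 1.88 for Il10. As a mean over cells it was 4.45 for Il1a, 1.56 for Il1b, 1.66 for Il1rn, 2.32 for Il1r2, 2.47 for Il10 and 2.31 for Il18. Of the alternatives chosen after seeing the data, leaving out the unnamed mixed cluster gave 1.298 for Il1b and 3.28 for Il18bp, and leaving out the highest cell gave 1.44 for Il6 and -0.51 for Il12b, a reversal. Co-detection over expectation in thinned cells was 1.39 for Il1a with Il1b, 1.60 with Tnf, 1.48 with Il10 and 2.82 with Il6. It was 1.13 for Il1b with Il1rn, 1.10 for Il1b with Il1r2 and 1.22 for Tnf with Il10. For Il18 with Il18bp it was 0, but only 1.92 cells were expected, too few to read. The looser filter gave 1.45 for Il1a with Tnf, 1.51 for Il1a with Il10 and 1.08 for Il1b with Il1r2, the stricter one 1.41 for Il1a with Tnf, and suffix 2 alone 1.43 for Il1a with Tnf, 1.01 for Il1b with Il1r2 and 1.23 for Tnf with Il10. Over all macrophage and dendritic cells, suffix 1 and suffix 2 held 0.126 and 0.164 UMIs of Il1rn and 0.0348 and 0.0506 UMIs of Il1r2 per UMI of Il1b, and suffix 2 held 0.184 of Il18bp per Il18 and 0.308 of Il1r2 per Il1rn. No cluster mostly of inflammatory-like cells formed at resolution 0.5 or with 3000 variable genes, none mostly of monocyte-like cells under those settings or the looser filter, and Il12b gave no value under the stricter filter, at resolution 0.5 or in suffix 2. Depth limits shares of cells with a UMI most for Il18bp, Il18 and Il1a, and few cells limit Il12b. No paired analysis was possible because each age is 1 library and no test was run.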
